A study of Mus musculus with 9 samples.

Results

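Of the 9 mouse oocyte libraries of this study, 6 were labelled aged (3) or NMN supplementation (3; NMN, nicotinamide mononucleotide), and they were compared with the 3 libraries labelled young. All 22526 genes of the deposited table entered the comparison, of which 9168 reached 1 FPKM in at least 3 libraries and were tested (FPKM, fragments per kilobase of transcript per mega of mapped fragments). The comparison asks which differences from young oocytes are found in aged oocytes and in oocytes of the NMN group alike. Every oocyte was from ICR mice, an outbred strain, and was labelled as metaphase II, the stage at which the ovulated egg waits for sperm. The labels give no age in weeks for any group, no dose or route of NMN, no number of animals and no number of oocytes per library. That the NMN group was aged is taken from the title of the series alone, since its own label names only the supplement. All p-values therefore measure only how these libraries spread, and that spread may be technical.

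A fully grown oocyte makes almost no new mRNA, so the transcripts of a metaphase II egg are a store laid down during growth and trimmed during maturation. This store supports the second meiotic division, fertilisation and the first steps of the embryo. NMN is a precursor of the coenzyme NAD, which carries electrons in metabolism and is consumed by sirtuins and other enzymes. Because a library may pool several oocytes, fewer oocytes carrying a transcript and less of it in each oocyte cannot be told apart.

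The libraries held 16.28 to 19.25 M reads (M for mega) as estimated from the low values, and 15762 to 16940 genes above 0. Oocyte markers (all 16 of 16 detected, with Gdf9, Zp1 and H1foo) together made 13022 to 17165 FPKM in young and 15356 to 20188 FPKM in the other libraries (two-sided exact permutation p = 0.0714, 6 against 3). Cumulus and granulosa markers (18 of 22 deposited) summed to 7.67 to 9.89 FPKM in young libraries and 5.55 to 6.48 FPKM in 5 of the others. Aged replicate 2 was at 31.8 FPKM, and it also stood apart on the first principal component (41.1% of the variance), at 56.9 against -28.6 to 22.8. Its Ptx3, Inha, Fst and Tnfaip6, defining genes of cumulus cells, were at 6.37, 3.17, 2.31 and 1.08 FPKM and listed at 0 elsewhere. Not all of the list went this way, since Cyp19a1 was at 3.03 FPKM in aged replicate 2, its lowest library. Cyp19a1 made most of the sum in each young library, at 5.27 to 6.21 FPKM, and was at 3.03 to 4.16 FPKM in aged and NMN libraries. Stromal and epithelial markers, early embryonic transcripts and immediate early genes gave exact permutation p of 0.738, 0.262 and 0.190 for 6 against 3 libraries. Immediate early genes summed to 88.7 to 126 FPKM in aged libraries and 56.5 to 73.4 FPKM in the other 6. Different genes made these sums. Dusp1 was at 114 and 96.4 FPKM in aged replicates 1 and 3, but at 34.0 FPKM in aged replicate 2, below every young library. There Ier3 was at 34.9 FPKM, against at most 0.0473 FPKM elsewhere. Fos was at 0 to 0.418 FPKM in aged and 0.856 to 1.77 FPKM in young libraries. Counts are also given without aged replicate 2.

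Aged and NMN oocytes differed from young ones in a set of transcripts whose size depended on the fit. A gene was called when the mean of the aged and NMN groups differed from young at a limma adjusted p under 0.05, in 1 fit over all 9 libraries. It was called higher for 26 genes (0.284% of the genes tested) and lower for 22 (0.24%), 48 in all (0.524%), while 1320 genes had an unadjusted p under 0.05. Of the 48, 24 higher (0.262%) and 18 lower (0.196%) also moved the same way in each group and had none of the 6 libraries within the range of the 3 young ones. These 42 genes (0.458%) are the differences shared by both groups. With sample quality weights 610 genes were called and 350 shared. With aged and NMN libraries as 1 group of 6, 11 genes were called, all among the 42, and with the replicate number as a block 2 of the 42 were (Tmed2 and E330012B07Rik). The range alone, without the test, was left by all 6 libraries upward for 339 genes (3.7%) and downward for 355 (3.87%), 694 in all (7.57%). The median log2 change of the 24 higher genes was 1.30 and of the 18 lower genes -1.26, against -0.02 over all tested genes. Of the 42, 36 changed at least 2-fold on the log2(FPKM + 1) scale, and 30 were annotated as protein-coding. By symbol alone, 12 were predicted, pseudogene or unnamed loci. The 2 counts follow different rules: C130073F10Rik is in both, and H3f3c, annotated as a processed pseudogene, is in neither. Most of the 42 were rare transcripts, 28 having a mean under 10 FPKM both in young and in the other libraries. For each of the 42 the exact permutation p was 0.0238, the smallest that 6 against 3 libraries can give, which the rule on the young range fixes.

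**Figure D1:**
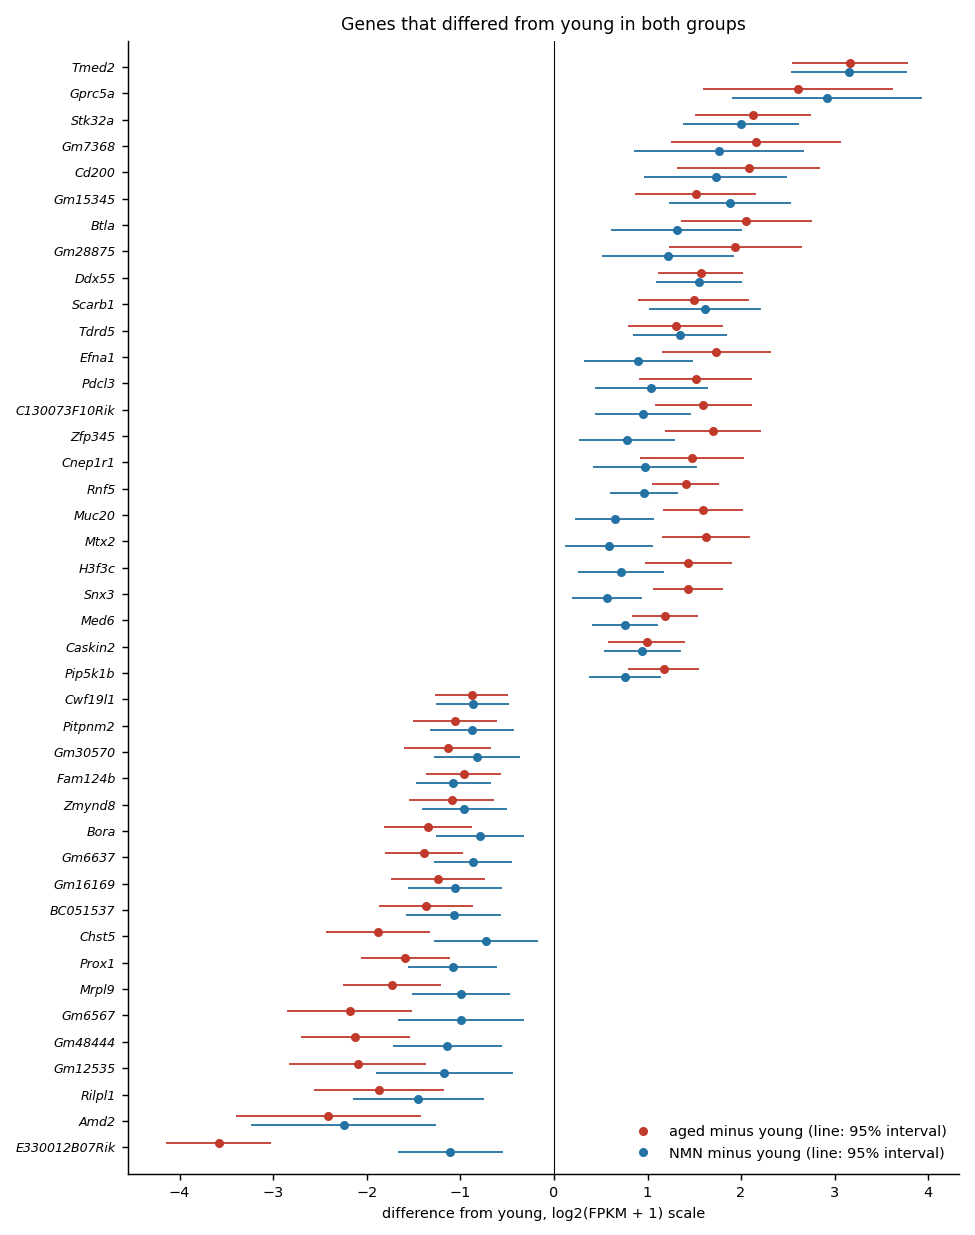
Difference from young of the 42 shared genes, for the aged group (red) and the NMN group (blue), on the log2(FPKM + 1) scale (x axis), with 95% intervals from the limma fit. All 24 higher genes lie right of 0 and all 18 lower genes left of it in both groups, which the choice of genes fixes, and the red points lie farther from 0 than the blue ones for 37 of the 42.

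The set depended on the young libraries. Without young replicate 1 or 2 only Tmed2 and E330012B07Rik met the rule, and without young replicate 3 only Tmed2. Without aged replicate 3 the set was 5 genes (Tmed2, Ddx55, Stk32a, Rnf5 and E330012B07Rik), and without NMN replicate 1 it was 7, the same 5 with Gm15345 and Gm48444. Leaving out aged replicate 1, NMN replicate 2 or NMN replicate 3 gave 44, 45 and 53 genes, of which 27, 26 and 35 were among the 42. Without aged replicate 2 the set grew to 96 and held all 42. The 3 young libraries, aged replicate 3 and NMN replicate 1 are hereafter called the 5 decisive libraries, since most calls were lost without any 1 of them. Only Tmed2 was called without every single library in turn. Gm16169 and Gm30570 passed the filter on low values only through the young libraries, and were not tested without any 1 of these.

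**Figure D2:**
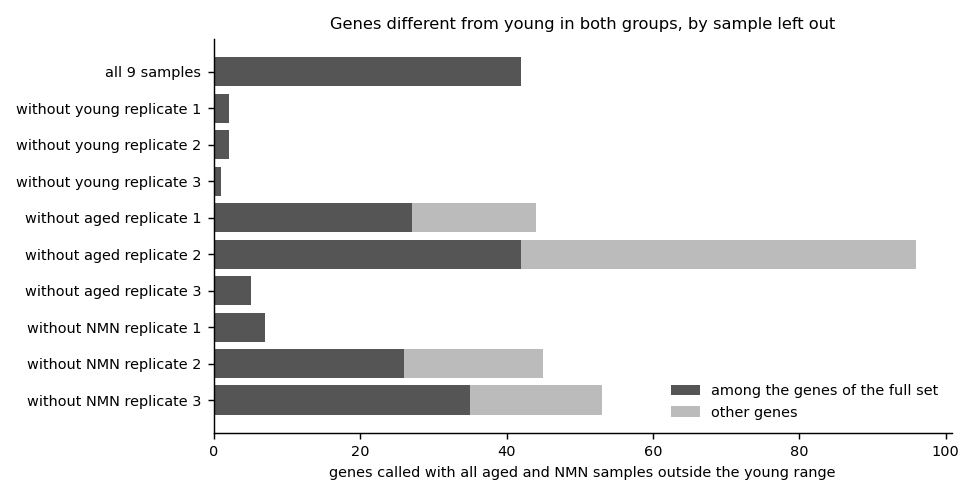
Number of genes that met the rule for a shared difference (x axis) with all 9 libraries and with each library left out (y axis), split into genes among the 42 of the full set (dark) and other genes (light). The bars for the 3 young libraries left out reach 2, 2 and 1, and the bar without aged replicate 2 reaches 96.

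Each group on its own passed the test against young for 3 genes (0.0327% of the genes tested), all 3 higher (0.0327%) and none lower (0%): Tmed2, Ddx55 and Stk32a. Aged against young called 200 genes and NMN against young 7, and both contrasts use the same young libraries. The other 39 shared genes each passed in aged against young and missed the threshold in NMN against young (limma adjusted p of 0.0726 to 0.474). Their call as shared rests on the average of the groups, while the NMN change alone did not pass. Deviations of same-numbered NMN and young libraries from their group means correlated at 0.50, 0.12 and 0.14. Libraries of different number were not compared. With the replicate number as a block no gene passed in NMN against young. Tmed2 was then at a limma adjusted p of 0.066, and Ddx55 and Stk32a at 0.163.

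Tmed2 and Ddx55 are next neighbours on chromosome 5 among the tested genes, with Rilpl1, a shared lower gene, on the other side of Tmed2. Cd200 and Btla, both shared higher genes, are next neighbours on chromosome 16. The promoters of Rilpl1, Ddx55, Cd200 and Btla (RefSeq, GRCm38.p6, 300 bases each, most of them before the gene's start) are shown because Cd200 and Btla rose together, while Rilpl1 and Ddx55, on either side of Tmed2, changed in opposite directions. Of the 42 genes, 26 matched the promoter table. Capitals mark the motif TATAAA, the motif CCAAT or the motif GGGCGG, or a complement, sought on both strands.
Rilpl1 (chr5:124531342-124531641, minus strand): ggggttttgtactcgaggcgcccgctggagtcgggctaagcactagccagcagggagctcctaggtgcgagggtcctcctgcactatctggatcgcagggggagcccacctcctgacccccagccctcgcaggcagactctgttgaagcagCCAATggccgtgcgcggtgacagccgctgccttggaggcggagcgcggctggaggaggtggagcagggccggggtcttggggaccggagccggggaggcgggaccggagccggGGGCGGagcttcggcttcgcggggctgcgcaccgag
Ddx55 (chr5:124552614-124552913, plus strand): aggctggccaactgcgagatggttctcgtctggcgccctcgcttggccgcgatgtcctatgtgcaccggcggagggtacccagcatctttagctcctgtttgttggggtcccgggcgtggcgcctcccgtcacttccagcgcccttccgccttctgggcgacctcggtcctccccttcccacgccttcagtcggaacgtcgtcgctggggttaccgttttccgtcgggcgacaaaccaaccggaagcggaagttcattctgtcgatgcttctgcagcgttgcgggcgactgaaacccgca
Cd200 (chr16:45409004-45409303, minus strand): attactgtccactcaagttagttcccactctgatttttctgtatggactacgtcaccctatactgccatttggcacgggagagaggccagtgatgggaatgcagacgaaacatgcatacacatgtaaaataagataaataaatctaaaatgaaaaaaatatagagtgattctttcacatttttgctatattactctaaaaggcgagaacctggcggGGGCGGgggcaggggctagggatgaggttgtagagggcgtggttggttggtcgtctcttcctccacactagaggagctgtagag
Btla (chr16:45224087-45224386, plus strand): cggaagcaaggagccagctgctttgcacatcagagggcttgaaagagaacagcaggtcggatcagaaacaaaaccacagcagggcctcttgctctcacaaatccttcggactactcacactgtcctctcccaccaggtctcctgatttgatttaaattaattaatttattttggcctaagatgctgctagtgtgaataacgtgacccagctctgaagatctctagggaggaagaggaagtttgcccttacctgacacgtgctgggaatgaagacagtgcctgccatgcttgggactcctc
The Rilpl1 window held CCAAT and GGGCGG and the Cd200 window GGGCGG, and the windows of Ddx55 and Btla held none of the 3. Over 27025 promoters, 14.2% held TATAAA, 37.9% CCAAT and 35.9% GGGCGG. Among the 26 matched genes these were in 2, 9 and 9 promoters. The Rilpl1 and Ddx55 windows were 71% and 63.7% G and C, those of Cd200 and Btla 45% and 49%, and the median over all promoters was 52.7%.

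Tmed2 (ENSMUSG00000029390) is a p24 cargo receptor of transport between the endoplasmic reticulum and the Golgi. It was at 8.95, 11.3 and 12.5 FPKM in young libraries, at 126, 78.8 and 133 FPKM in aged and at 113, 127 and 89.6 FPKM in NMN libraries. The lowest of the 6 was thus far above the highest young library, and the aged and NMN values overlapped. The mean of the 6 was 10.2 times the young mean (log2 change 3.16 ± 0.24 SE, limma adjusted p = 0.000904). Without each library in turn the highest adjusted p from limma was 0.0163, without young replicate 2. The NMN and aged groups differed by -0.01 (95% interval -0.63 to 0.61). Of its transcript, 22.0% was shared in 50-base words with other genes, mainly the pseudogene Gm10698, which was deposited at 0.0990 to 1.39 FPKM.

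Ddx55, a DEAD-box RNA helicase of ribosome biogenesis, was at 1.76, 1.76 and 1.5 FPKM in young, 7.33, 6.51 and 7.72 in aged and 6.99, 8.54 and 5.81 FPKM in NMN libraries. The 3 young libraries lay close together and far below the other 6, whose groups overlapped. The mean was 4.28 times higher (log2 change 1.56 ± 0.18, limma adjusted p = 0.0106), and NMN and aged differed by -0.02 (95% interval -0.47 to 0.44). Stk32a, a serine/threonine kinase on chromosome 18, was listed at 0, 0.168 and 0.0414 FPKM in young libraries, where 3 reads on a transcript of 2 kb would give 0.0779 to 0.0921 FPKM. It was thus near the detection floor in young oocytes, and it passed the filter on low values only through the aged and NMN libraries. In aged libraries it was at 3.79, 5.83 and 2.28 FPKM and in NMN libraries at 4.96, 2.09 and 3.42 FPKM (log2 change 2.06 ± 0.24, limma adjusted p = 0.0106). Both calls were lost when any 1 young library was left out, and held without each aged or NMN library.

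**Figure D3:**
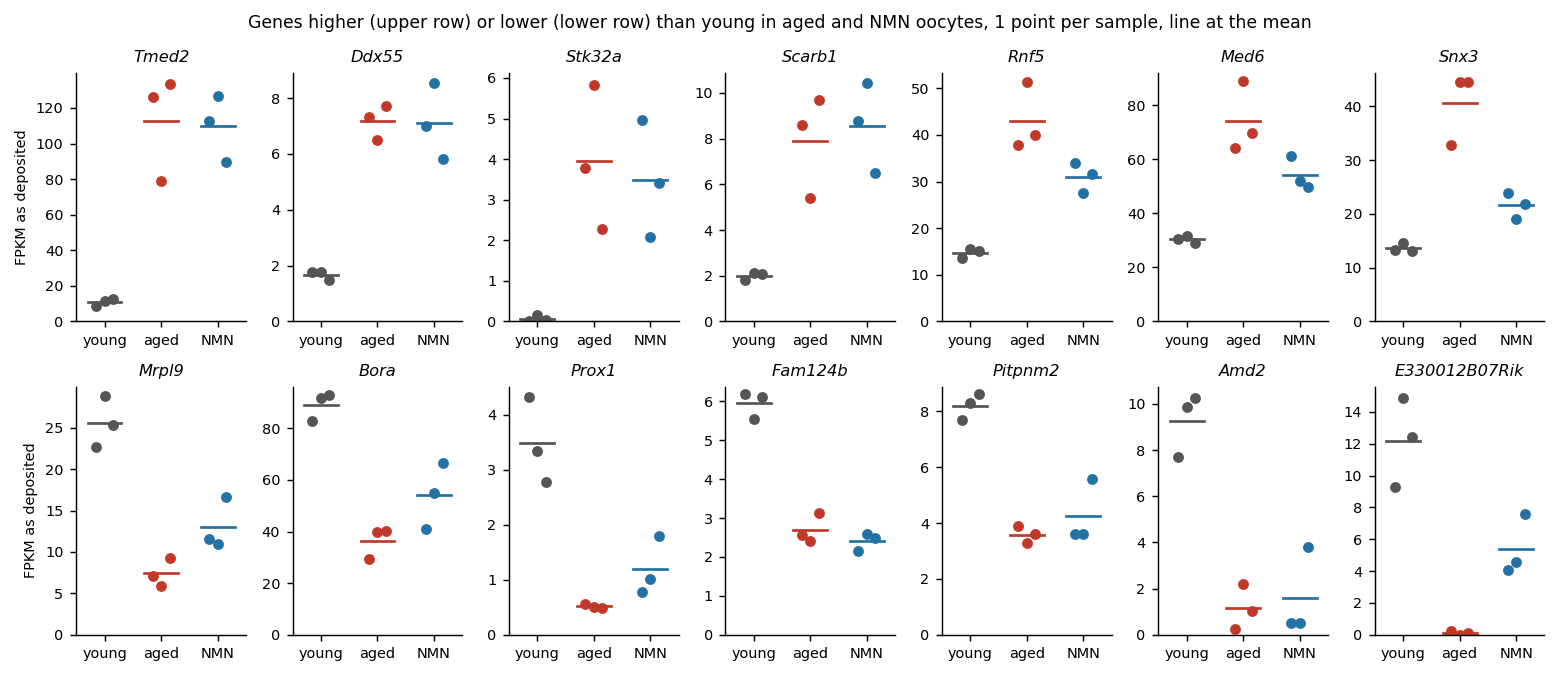
FPKM as deposited (y axis, from 0) of 7 higher and 7 lower shared genes in the young, aged and NMN libraries, 1 point per library and a line at each group's mean. Tmed2, Ddx55, Stk32a and Scarb1 reach similar levels in aged and NMN libraries, whereas the NMN points of Snx3, Mrpl9 and E330012B07Rik lie between the young and the aged ones.

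The surroundings of Tmed2, chosen after the values were seen, held further shared genes. From Pitpnm2 to Scarb1 there were 16 tested genes, and 5 of them were shared: Tmed2, Ddx55 and Scarb1 higher, Rilpl1 and Pitpnm2 lower. All 6 libraries left the young range for 9 of the 16 (56.2%, 6 higher and 3 lower), against 7.57% of all tested genes. The stretch was cut at shared genes on both ends, and the 5 shared genes are outside the range by rule. The share is therefore raised by this choice and is no test. Scarb1, the receptor of high-density lipoprotein, was at 1.82, 2.11 and 2.08 FPKM in young, 8.62, 5.42 and 9.68 in aged and 8.76, 10.4 and 6.50 FPKM in NMN libraries. The mean was 4.12 times higher (log2 change 1.55 ± 0.23, limma adjusted p = 0.0256), with the aged and NMN values mixed. Rilpl1, a protein that binds Rab GTPases, fell from 3.38, 3.31 and 1.98 FPKM in young libraries to 0, 0.224 and 0.0244 in aged and 0.0483, 0.152 and 1.47 FPKM in NMN libraries (log2 change -1.66 ± 0.27, limma adjusted p = 0.0329). NMN replicate 3 was the library nearest to the young ones. Pitpnm2, a phosphatidylinositol transfer protein, fell from 8.19 ± 0.48 to 3.59 ± 0.31 FPKM in aged and 4.26 ± 1.14 FPKM in NMN libraries (SD, n = 3; -0.97 ± 0.18, limma adjusted p = 0.0477). The calls of these 3 genes were lost without any 1 of the 5 decisive libraries, and those of Rilpl1 and Pitpnm2 also without aged replicate 1 or NMN replicate 2. The Rilpl1 transcript overlaps an antisense gene over 10.5% of its exons, and no strand is stated for the counting.

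**Figure D4:**
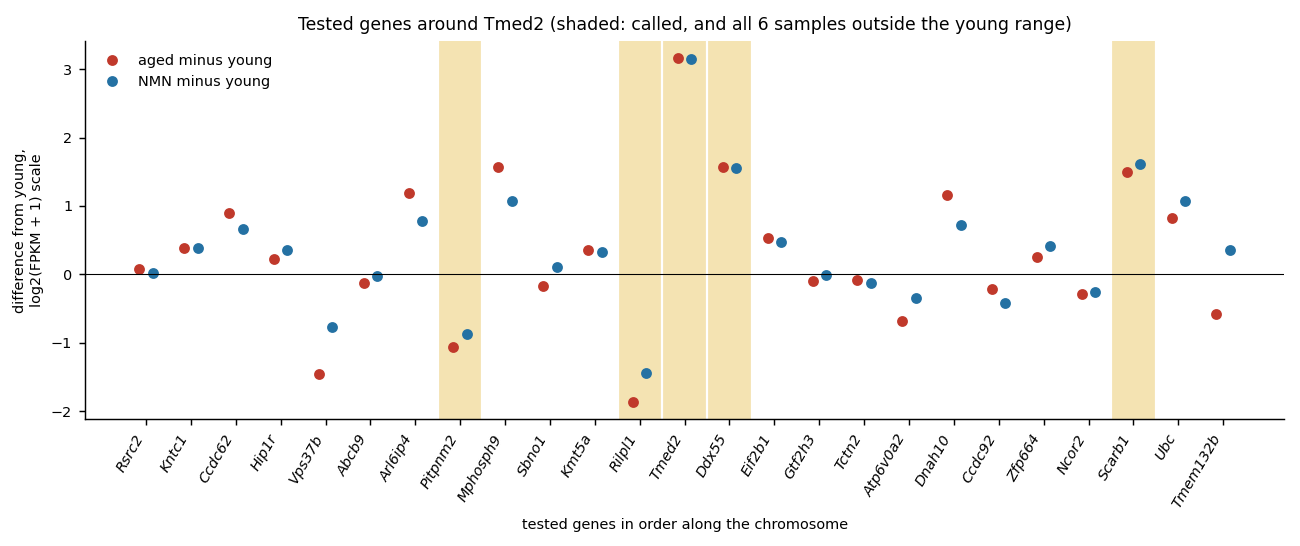
Difference from young on the log2(FPKM + 1) scale (y axis) of Tmed2 and the 12 tested genes on either side, in their order along the chromosome (x axis), for the aged (red) and NMN (blue) groups. Shaded genes met the rule for a shared difference, with Tmed2 at 3.16 and 3.15 and its neighbour Rilpl1 at -1.87 and -1.45.

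Gprc5a, Cd200, Btla, Efna1 and Muc20 also rose from low levels, and these 5 were chosen after their values were seen. All but Efna1 were under 1 FPKM in every young library. Those genes thus passed the filter on low values only through the aged and NMN libraries, where they were high. Gprc5a, an orphan G protein-coupled receptor induced by retinoic acid, was at 0.0574, 0.0552 and 0.150 FPKM in young, 7.18, 3.30 and 7.64 in aged and 8.39, 14 and 3.05 FPKM in NMN libraries (log2 change 2.76 ± 0.40, limma adjusted p = 0.0256). Cd200, a glycoprotein that restrains myeloid cells, was at 0.828, 0.519 and 0.813 FPKM in young, 2.89, 10.4 and 8.44 in aged and 6.55, 4.88 and 3.39 FPKM in NMN libraries (1.90 ± 0.30, limma adjusted p = 0.0294). Btla, an inhibitory receptor of lymphocytes, was at 0.459, 0.459 and 0.478 FPKM in young, 3.54, 7.70 and 5.16 in aged and 2.23, 4.99 and 1.60 FPKM in NMN libraries (1.68 ± 0.27, limma adjusted p = 0.0329). That no young library overlapped the others is fixed by the rule for a shared gene. The aged and NMN values of these 3 genes overlapped. Ptprc, the defining gene of white blood cells, was deposited at 0.0330 FPKM or less in all 9 libraries. The blood and immune markers (4 of 12 deposited) summed to 6.16 to 10.9 FPKM in young and 3.54 to 12.6 FPKM in the others (two-sided exact permutation p = 0.667). Most of this sum was C1qb, at 2.48 to 10.1 FPKM over the 9 libraries. Cd68 was at 0.366 to 2.51 FPKM, and Cd74 at 0.174 FPKM in aged replicate 2 and 0 elsewhere. Efna1 (ephrin-A1, a ligand of Eph receptors) rose from 1.34 ± 0.39 to 7.0 ± 1.06 FPKM in aged and 3.69 ± 1.74 FPKM in NMN libraries, and Muc20, a mucin, from 0.136 ± 0.017 to 2.52 ± 0.59 and 0.818 ± 0.316 FPKM (SD, n = 3; limma adjusted p = 0.0394 and 0.0256). An antisense gene, Muc4, overlaps 15.6% of the Muc20 exons. These 5 calls were lost without any 1 of the 5 decisive libraries, and that of Efna1 also without aged replicate 1 or NMN replicate 3.

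Rnf5, Snx3, Pdcl3 and Cnep1r1 also rose. Rnf5, a ubiquitin ligase of the endoplasmic reticulum membrane, was at 13.6, 15.6 and 15.1 FPKM in young, 37.8, 51.3 and 39.9 in aged and 33.9, 27.5 and 31.6 FPKM in NMN libraries. The mean was 2.51 times higher (log2 change 1.19 ± 0.14, limma adjusted p = 0.0106), and every NMN library lay below every aged one. Snx3, a sorting nexin of early endosomes, was at 13.3, 14.6 and 13.0 FPKM in young, 32.8, 44.5 and 44.6 in aged and 23.9, 19 and 21.8 FPKM in NMN libraries (log2 change 1.0 ± 0.15, limma adjusted p = 0.0256). The NMN group lay between the others, with an NMN change from young of 0.57 that did not pass on its own (limma adjusted p = 0.36). Pdcl3, a phosducin-like co-chaperone, rose from 8.15 ± 1.33 to 26.9 ± 8.77 FPKM in aged and 19.4 ± 8.36 FPKM in NMN libraries (SD, n = 3; log2 change 1.28 ± 0.24, limma adjusted p = 0.0495). Cnep1r1, the regulatory subunit of a nuclear envelope phosphatase, rose from 3.88 ± 0.59 to 13.1 ± 1.63 and 9.14 ± 2.89 FPKM (1.22 ± 0.22, limma adjusted p = 0.0426). The call of Rnf5 was lost without any 1 young library. The other 3 calls were lost without any 1 of the 5 decisive libraries, and those of Pdcl3 and Cnep1r1 also without aged replicate 1 or NMN replicate 2. An antisense gene overlaps 24.7% of the Rnf5 exons.

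Med6, a subunit of the Mediator complex that links transcription factors to RNA polymerase II, was at 30.3, 31.5 and 29.1 FPKM in young, 64.2, 88.8 and 69.7 in aged and 61.2, 52.1 and 49.5 FPKM in NMN libraries. The mean of the 6 was 2.12 times higher (log2 change 0.97 ± 0.14, limma adjusted p = 0.0256), and the rule fixes that all 6 lay above the young range. Mtx2, a metaxin of protein import at the outer mitochondrial membrane, was at 2.60, 2.19 and 1.60 FPKM in young, 6.22, 12 and 9.36 in aged and 4.01, 3.60 and 3.8 FPKM in NMN libraries (1.11 ± 0.18, limma adjusted p = 0.0329). Its NMN libraries were just above the young ones and below all aged ones. Tdrd5, a Tudor protein of the piRNA pathway in germ cells, was chosen after its values were seen. It rose from 1.65 ± 0.41 to 5.81 ± 1.54 FPKM in aged and 6.0 ± 1.52 FPKM in NMN libraries (SD, n = 3; 1.33 ± 0.20, limma adjusted p = 0.0256). H3f3c, annotated as a processed pseudogene, and Zfp345 rose by 1.08 ± 0.18 and 1.24 ± 0.20 (limma adjusted p = 0.0333 and 0.0329). Both share sequence with other genes, H3f3c 73.8% of its 50-base words, mainly with H3f3a, and Zfp345 29.8%, mainly with Gm14139. H3f3a was at 0.148 to 1.70 FPKM, above the young range in all 6 libraries but not called (limma adjusted p = 0.135). Gm14139 was at 0.0665 to 0.556 FPKM. The levels of such genes are uncertain, since reads could be split between copies. The 5 calls were lost without any 1 of the 5 decisive libraries. That of H3f3c was also lost without aged replicate 1 or NMN replicate 2, and that of Mtx2 without NMN replicate 2 or 3.

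The lower transcripts included Mrpl9 and Bora, both well expressed. Mrpl9, a protein of the large subunit of the mitochondrial ribosome, was at 22.7, 28.8 and 25.3 FPKM in young, 7.09, 5.91 and 9.28 in aged and 11.5, 10.9 and 16.6 FPKM in NMN libraries. The young mean was 2.5 times that of the others (log2 change -1.36 ± 0.20, limma adjusted p = 0.0256), and the NMN libraries lay between the groups without touching either. Bora, a cofactor of Aurora A in the activation of Polo-like kinase at mitotic entry, was at 82.7, 91.8 and 93.0 FPKM in young, 29.2, 39.7 and 40.3 in aged and 40.9, 55.0 and 66.7 FPKM in NMN libraries (-1.07 ± 0.18, limma adjusted p = 0.0394). All aged libraries were below all NMN libraries. For Mrpl9 and Bora alike, the rule fixes that aged and NMN libraries lay below all young ones. Aurka, which encodes Aurora A itself and was chosen after its values were seen, was at 194 ± 10.4 FPKM in young, 134 ± 31.7 in aged and 167 ± 15.5 FPKM in NMN libraries (SD, n = 3; limma adjusted p = 0.347). The call of Mrpl9 was lost without any 1 of the 5 decisive libraries, and that of Bora also without aged replicate 1 or NMN replicate 2.

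Prox1, a homeobox transcription factor, was at 4.32, 3.34 and 2.78 FPKM in young, 0.550, 0.505 and 0.487 in aged and 0.772, 1.01 and 1.79 FPKM in NMN libraries (log2 change -1.34 ± 0.19, limma adjusted p = 0.0256). Its young level was 4.08 times that of the others. Chst5, a sulfotransferase of carbohydrates, was at 6.99, 7.85 and 7.12 FPKM in young, 1.06, 1.18 and 1.84 in aged and 2.83, 5.84 and 4.38 FPKM in NMN libraries (-1.30 ± 0.22, limma adjusted p = 0.0333). NMN replicate 2 came nearest to the young libraries. The next 3 lower genes were chosen after their values were seen. Zmynd8, a reader of chromatin marks, fell from 2.28 ± 0.38 to 0.593 ± 0.231 FPKM in aged and 0.745 ± 0.329 FPKM in NMN libraries, and Fam124b from 5.95 ± 0.35 to 2.70 ± 0.38 and 2.41 ± 0.24 FPKM (SD, n = 3; limma adjusted p = 0.0394 and 0.0287). Amd2, a copy of the S-adenosylmethionine decarboxylase gene of polyamine synthesis, was at 7.69, 9.85 and 10.2 FPKM in young, 0.233, 2.21 and 1.04 in aged and 0.517, 0.515 and 3.8 FPKM in NMN libraries (-2.33 ± 0.39, limma adjusted p = 0.0329). It shares 85.7% of its 50-base words with other genes, mainly Amd1, which was at 68.0 to 104 FPKM in all 9 libraries and was not called (limma adjusted p = 0.464). These 5 calls were lost without any 1 of the 5 decisive libraries. That of Chst5 was also lost without aged replicate 1 or NMN replicate 3, that of Zmynd8 without aged replicate 1 or NMN replicate 2 and that of Amd2 without NMN replicate 2.

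E330012B07Rik, an unnamed locus, had the smallest p after Tmed2. It was at 9.25, 14.8 and 12.4 FPKM in young, 0.223, 0 and 0.105 in aged and 4.05, 4.58 and 7.60 FPKM in NMN libraries (log2 change -2.35 ± 0.22, limma adjusted p = 0.0031). It was at or near 0 in aged oocytes and present in NMN oocytes at a level below young. It was called without each library except young replicate 3 (limma adjusted p = 0.0533), and not with aged and NMN libraries as 1 group of 6 (limma adjusted p = 0.217). Gm6567, a predicted gene, was at 5.02, 6.81 and 4.24 FPKM in young, 0.744, 0 and 0.573 in aged and 2.72, 1.17 and 3.29 FPKM in NMN libraries (-1.59 ± 0.26, limma adjusted p = 0.0329), and its call was lost without any 1 of the 5 decisive libraries.

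The shared differences were mostly smaller in the NMN than in the aged group. The NMN change was the smaller one for 37 of the 42 (88.1%), the exceptions being Gprc5a, Scarb1, Tdrd5, Gm15345 and Fam124b. It was also the smaller one for 510 of the 694 genes that left the young range (73.5%). The share over all tested genes was not counted, so whether this is particular to the shared genes was not tested. The 95% interval of NMN minus aged excluded 0 for 21 of the 42 genes, and after adjustment over all tested genes limma called 1 of them, E330012B07Rik (2.48, 95% interval 1.91 to 3.04, adjusted p = 0.00364). The differences next in size were those of Gm6567 (1.19, 0.52 to 1.86), Chst5 (1.16, 0.60 to 1.71) and Mtx2 (-1.03, -1.50 to -0.57), with limma adjusted p of 0.179, 0.122 and 0.112. For these 3 genes the interval excludes 0 while the adjusted test does not pass. NMN against aged called 20 genes in all.

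Called genes that did not meet the rule for sharing numbered 6: Gm44609, Zfp961, Arntl2, Uba6, Ypel5 and Rbm34. For each of them the aged change was larger than the NMN change. Uba6, a ubiquitin-activating enzyme, was at 3.08 ± 0.54 FPKM in young, 0.249 ± 0.042 in aged and 2.96 ± 0.36 FPKM in NMN libraries (SD, n = 3). Arntl2, a circadian clock transcription factor, was at 4.26 ± 0.52, 0.169 ± 0.050 and 4.13 ± 1.67 FPKM. The NMN changes from young were -0.08 for Uba6 and -0.12 for Arntl2 (limma adjusted p = 0.907 and 0.895).

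Across 31 lists of oocyte and pathway genes, 4 held a called gene, 1 each, and 27 held none. Tmed2 was among 54 tested genes of p24 receptors and transport from the endoplasmic reticulum to the Golgi. Snx3 was among 58 SNARE, Rab and endosomal sorting genes, Uba6 among 48 ubiquitin conjugation genes and Arntl2 among 18 clock genes. Over all tested genes 0.524% were called, and the share over all list members together was not counted. Single calls are thus no result about a list. Only Tmed2 and Snx3 were shared. Members with all 6 libraries outside the young range are counted next, of which 3.7% and 3.87% of all tested genes are the background for higher and lower. Single members given with their values were chosen after these were seen.

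Nuclear-encoded respiratory chain and ATP synthase genes had 7 of 44 tested members above the young range (15.9%) and 1 below (2.27%). Their median log2 change was 0.45 (0.61 in aged, 0.26 in NMN), and none passed the test. Ndufc2, a subunit of complex I, was at 3.01, 1.53 and 2.14 FPKM in young, 6.43, 15.1 and 7.80 in aged and 7.96, 3.34 and 3.61 FPKM in NMN libraries (limma adjusted p = 0.0958). Aged replicate 2 was the highest library for 6 of the 7, the exception being Uqcrc2. Without that library, 6 of 40 tested members were above the young range (15%), against 4.57% of all genes tested, and the median was 0.33. Cytosolic ribosomal protein genes had a larger median of 0.55 (0.75 in aged, 0.22 in NMN), and 0.34 without that library. Of their 33 tested members, 2 were above the young range (6.06%) and 1 below (3.03%). The mitochondrially encoded mRNAs lay on the other side, with 2 of 10 below the young range (20%) and a median of -0.53 (-0.78 in aged, -0.34 in NMN). mt-Nd1, a complex I subunit made in the mitochondrion, was at 1206, 1268 and 1266 FPKM in young, 627, 802 and 509 in aged and 688, 874 and 831 FPKM in NMN libraries (log2 change -0.87, limma adjusted p = 0.0527). It was taken from the members below the young range, so that all 6 lay there by choice, and it missed the test.

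Proteasome subunits had 4 of 32 above the young range (12.5%) and none below, namely Psmb1, Psma5, Psmb2 and Psmd9, with a median of 0.14. Psmd9, an assembly chaperone of the proteasome, was at 49.2, 45.8 and 49.7 FPKM in young, 82.3, 89.3 and 85.0 in aged and 85.3, 87.0 and 61.5 FPKM in NMN libraries (limma adjusted p = 0.0991). Tubulins, kinesins and spindle assembly genes had 5 of 42 above (11.9%) and 1 below (2.38%). Tubb3, a beta-tubulin, was at 65.9, 66.0 and 63.3 FPKM in young, 98.7, 108 and 108 in aged and 112, 120 and 85.5 FPKM in NMN libraries (limma adjusted p = 0.115). Both genes were taken from the members above the young range, so that all 6 libraries lay there by choice, and both missed the threshold.

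Oocyte-restricted gene families had 6 of 44 above (13.6%) and 1 below (2.27%). Fbxw14, of the oocyte F-box family, was at 1084, 1077 and 1043 FPKM in young, 1551, 1745 and 1655 in aged and 1588, 1407 and 1471 FPKM in NMN libraries (limma adjusted p = 0.115). Oog1 (oogenesin) went the other way, at 562, 658 and 648 FPKM in young, 377, 342 and 321 in aged and 215, 462 and 281 FPKM in NMN libraries (limma adjusted p = 0.108). These families hold near-identical copies, so single members are uncertain. SNARE, Rab and endosomal sorting genes had 6 of 58 below the young range (10.3%), namely Stx8, Vps37b, Snx5, Rab35, Stx6 and Vps4a, and 1 above, Snx3. Meiotic arrest, maturation and anaphase promotion genes had 1 of 52 outside the range, and splicing and RNA-binding motif genes 1 of 67. NAD synthesis, consumption and sirtuin genes had 1 of 13 below, the mitochondrial NAD carrier Slc25a51, at 6.08 ± 0.58 FPKM in young, 3.88 ± 0.86 in aged and 4.89 ± 0.17 FPKM in NMN libraries (SD, n = 3; limma adjusted p = 0.229).

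**Figure D5:**
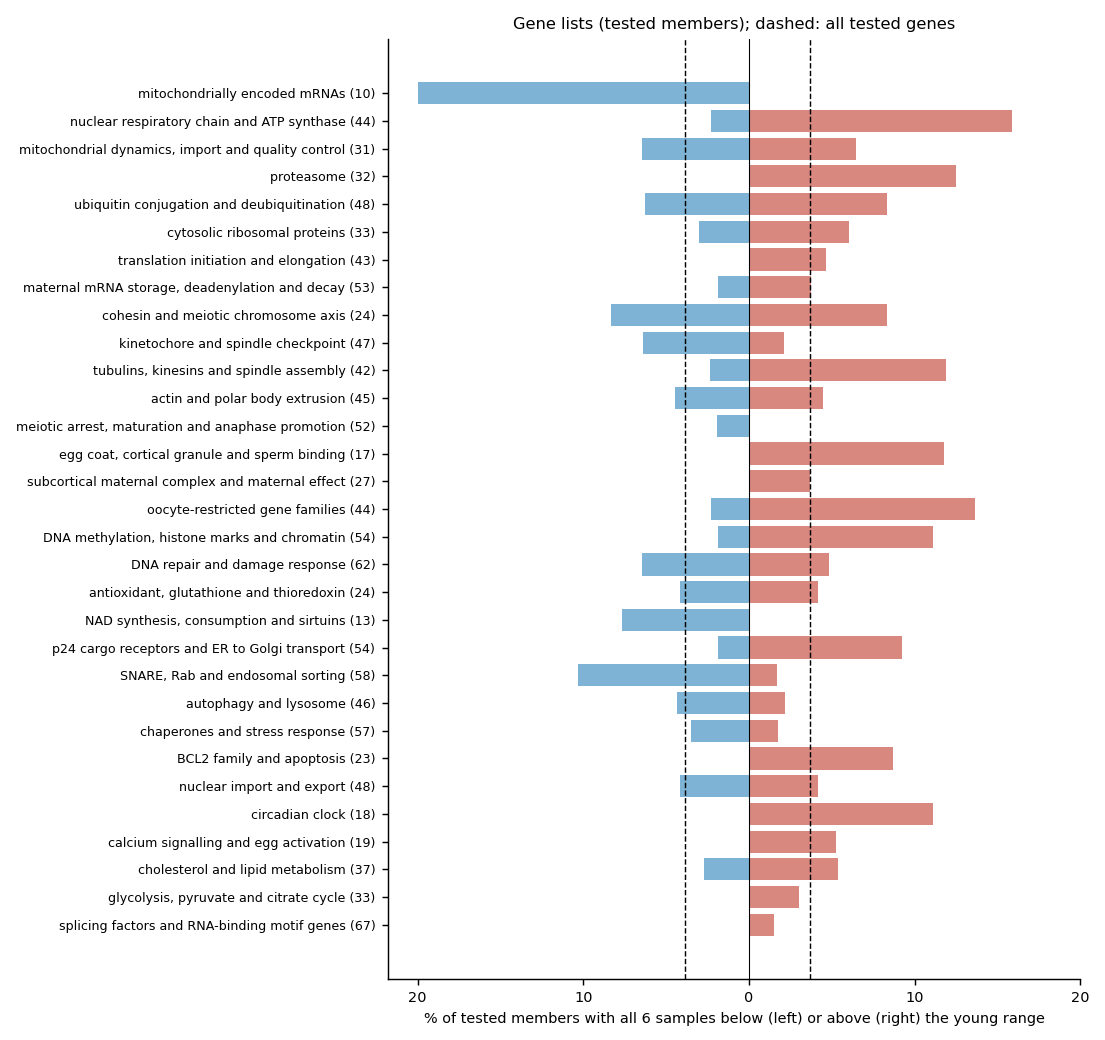
Share of the tested members of each gene list (tested members in brackets) with all 6 aged and NMN libraries above (right, red) or below (left, blue) the range of the 3 young libraries, in percent (x axis). Dashed lines mark the shares over all tested genes, 3.87% below and 3.7% above, and the longest bars are those of the mitochondrially encoded mRNAs (20%, lower) and the nuclear respiratory chain (15.9%, higher).

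Without aged replicate 2, 8953 genes were tested and 64 were called higher (0.715%) and 49 lower (0.547%), 113 in all (1.26%). Of these, 57 higher (0.637%) and 39 lower (0.436%), 96 in all (1.07%), had the 5 remaining libraries outside the young range. They held the 42 genes and 54 others. In this fit 5 of 10 mitochondrially encoded mRNAs were called lower, mt-Atp6, mt-Co1, mt-Nd1, mt-Nd2 and mt-Co2. Only mt-Co1 and mt-Nd1 were among the 96. The calls of mt-Atp6, mt-Nd2 and mt-Co2 rest on the average of the groups and did not meet the rule for a shared difference. Higher genes in this fit, named after their values were seen, were Hormad1, of the meiotic chromosome axis, H2afx, the histone variant marked at DNA breaks, and Tuba1c, an alpha-tubulin. Hormad1 was at 11.1, 18.2 and 15.5 FPKM in young, 32.4, 47.4 and 45 in aged and 53.8, 54.4 and 27.1 FPKM in NMN libraries. With all 9 libraries Hormad1 just missed the threshold (limma adjusted p = 0.05001). It passed without aged replicate 2 (limma adjusted p = 0.0409), although that library itself lay with the other aged ones. Each group on its own was called against young for 10 genes in this fit, the 3 above and Fam124b, Rnf5, Gm15345, Scarb1, Gm49371, Tpm3-rs7 and Gprc5a.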

How the data were processed

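Libraries of oocyte mRNA were made by Smart-seq2 from an oligo(dT) primer, per the labels' protocols, which describe DNBseq libraries. The sample descriptions name an MGISEQ-2000, and the design text an Illumina platform. The deposited values are FPKM in 1 table of 22526 genes, although its name speaks of counts. They sum to 300369 to 329359 per library. Bowtie2 2.2.5, RSEM and the build mm9 are named in the submitters' processing notes, with no role given. For annotation, filters and strand use the entry is: not given in the sources used here. GENCODE M21 gave symbols for 22487 identifiers, gene order and sequence overlap only, since its build differs from mm9.

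FPKM were divided by trimmed-mean factors (30% by ratio, 5% by level), and only genes that reached 1 FPKM in 3 or more libraries were tested. limma 3.58.1 (R 4.3.3) was run on log2(FPKM + 1) with a variance trend and robust moderation, a mean per group over all 9 libraries and the contrast of the averaged aged and NMN means against young. P-values were adjusted by Benjamini-Hochberg over all 9168 tested genes, and 0.05 was the threshold. This scale understates the change of low genes. A shared gene was called, moved the same way in both groups, and had all 6 libraries outside the young range of scaled values. FPKM in the text are as deposited, with their means and SDs. The steps were tested on simulated data. Single genes and marker sums were compared by two-sided exact permutation tests (Python 3.11.15, scipy 1.17.1).

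Depth was read from 2659 genes with 1 transcript over 1500 nt, whose values below 20 reads were whole multiples of 1 step, within 0.02 reads, for 96.6 to 97.7% of values. This gives a floor of 3 reads per 2 kb, for counting error only. Near-identical copies were sought by shared words of 50 bases. The genes, lists and members were chosen with earlier results of these data known. Genes were named by a rule: up to 14 of the largest shared increases and 14 decreases whose mean reached 10 FPKM in young or in the other libraries, without predicted or unnamed loci, the 6 smallest p, up to 4 called members per list, and the 4 shared genes with the largest NMN minus aged difference. This named 19, and others are said to be chosen after their values were seen. Deviations of same-numbered libraries correlated at over 0.1 in every pair for NMN and young (0.50, 0.12 and 0.14). Those of aged and young libraries did not (-0.34, -0.27 and 0.31). Libraries of different number were not compared. The averaged contrast was fitted without a block. With the block, Tmed2 and E330012B07Rik kept their call (limma adjusted p = 0.0219 and 0.0238). Every other called gene missed the threshold with it, the shared ones at limma adjusted p of 0.0694 to 0.0928. P-values in the text are from fits without it unless a block is named. Alternatives were another pseudocount, filter, scaling, moderation, sample weights, grouping, a block and leaving out each library.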

Additional observations from a re-analysis of the deposited data

Results flagged for a closer look

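For 6 of the 48 called genes the NMN and aged groups themselves differed, by limma's contrast of NMN minus aged from the same fit, adjusted over all tested genes. Gm44609, a predicted gene, was higher in NMN than in aged oocytes by 4.53 on the log2 scale (limma adjusted p = 0.00644). It was listed at 0 in all 3 aged libraries and at 44.3, 6.51 and 36.5 FPKM in NMN libraries, and it shares 40.9% of its 50-base words with other genes. E330012B07Rik differed by 2.48, Arntl2 by 2.08, Uba6 by 1.65 and Zfp961 by 1.62, all higher in NMN (limma adjusted p = 0.00364, 0.00644, 0.00496 and 0.0197). Rbm34, an RNA-binding motif gene, differed by -2.60 (limma adjusted p = 0.00174), from 8.28 ± 2.99 FPKM in aged to 0.462 ± 0.127 FPKM in NMN libraries (SD, n = 3), next to 0.355 ± 0.073 FPKM in young. Rbm34 passed the filter on low values only through the aged libraries. E330012B07Rik was the 1 shared gene among the 6.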

How the results depend on the processing

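The counts moved with several choices. The called, shared and separately called genes were 48, 42 and 3. They were 30, 28 and 5 with no filter on low values, 19, 17 and 1 with a minimum of 5 FPKM, and 610, 350 and 43 with sample quality weights, which gave aged replicate 2 a weight of 0.206. With aged and NMN libraries as 1 group of 6, 11 genes were called. Leaving out 1 library gave 1 to 113 called, 1 to 96 shared and 1 to 10 separately called genes; the cause was not tested. With the replicate number as a block they were 2, 2 and 0 (Tmed2 and E330012B07Rik remained). Deviations of same-numbered libraries correlated positively in every pair for NMN and young, but not for aged and young, nor for NMN and aged (-0.37, -0.36 and 0.20). Libraries of different number were not compared, so a pairing by replicate number was not tested. A pseudocount of 0.1 gave 41, 36 and 4, values as deposited 52, 47 and 2, median-of-ratios scaling 46, 41 and 3, and no trend or robust moderation 46, 41 and 3. Of the 19 named genes, 17 kept their call with a pseudocount of 0.1, 9 with no filter, 18 with either other scaling, 4 with 1 group of 6 and 2 with the block, and none changed direction under any alternative run. Transcripts near 0.0779 to 0.0921 FPKM cannot be told from absent ones at this depth.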
